A study of Homo sapiens with 11 samples.

Results

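The forkhead (FOX) and SOX genes are DNA-binding transcription factors, and 47 of the 19990 genes in the count table carry a symbol of either family: 32 forkhead genes and 15 SOX genes, chosen by symbol alone. They were followed in cardiomyocytes of WTC11, a human iPSC (induced pluripotent stem cell) line in established use, here at passage 63. CHIR99021, an activator of Wnt signalling, and then IWP2, an inhibitor of Wnt secretion, directed 1 differentiation, whose wells then stayed in medium with B27 and insulin until their poly(A) RNA was sequenced. The groups were Day 30 (4 wells), Day 60 (3 wells) and Day 113 (4 wells), all without a genetic change or a further treatment named in the labels. Because the wells shared 1 line and 1 differentiation, the tests below measure only the spread between wells, and age in culture cannot be told apart from the collection that each day forms.

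Forkhead proteins bind DNA through a winged-helix domain. Some of them, the FOXA proteins first, open closed chromatin for other factors, and others carry insulin signals (FOXO), drive mitosis (FOXM1) or repress (FOXP, FOXK). SOX proteins bind through an HMG box that bends DNA, and their subgroups are tied to lineages: SOXB1 to neural and pluripotent cells, SOXC to immature cells, SOXE to cartilage and neural crest, and SOXF to endothelium. The cardiomyocyte itself relies mainly on factors of other families, so several of these genes are better known from the cells that can accompany it in a culture.

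Levels are given as counts per 1000000 (CPM) on library sizes scaled by trimmed means of M values (TMM). The 11 libraries held between 24071375 and 34546715 counts. Cardiomyocyte markers were high in every well, with 18 of them summing to 39856 to 55301 CPM at Day 30, 50645 to 58929.8 CPM at Day 60 and 45892 to 52776 CPM at Day 113. Fold changes come from edgeR's quasi-likelihood test over all 19990 genes, and a gene is said to have risen or fallen where its Benjamini-Hochberg adjusted p was under 0.05. Of the 47 members, 42 reached a mean of 1 CPM on at least 1 day.

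The called differences from Day 30 among the forkhead and SOX genes were mostly falls. At Day 60 against Day 30, 1 member rose and 8 fell, 19.1% of the 47 against 10.3% called over all genes (4.39% higher, 5.91% lower). From Day 60 to Day 113, 7 rose and 8 fell, 31.9% against 24.0% (12.9% higher, 11.1% lower). Over the whole course 5 rose and 13 fell, 38.3% against 34.5%, a share near that of all genes. The members split by direction as 10.6% higher and 27.7% lower, beside 17.3% higher and 17.2% lower over all genes.

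The median log2 fold change of the members was -0.20, -0.13 and -0.28 in these 3 comparisons, beside -0.01, 0.00 and -0.02 over all genes. No overlap of wells was seen for 15, 13 and 19 members, where 24.8%, 30.6% and 35.1% of all genes did not overlap. Any change over the 3 days was called for 25 members (53.2%, background 37.1%), and a change that differed between the 2 intervals for 6 (12.8%, background 9.34%; 3 above 0 and 3 below, backgrounds 4.97% and 4.38%). The 6 were FOXA3, FOXN3, FOXN4, SOX7, SOX9 and SOX18. The count for Day 60 against Day 30 fell to 5 without Day 60 replicate 1 and to 3 without Day 60 replicate 3.

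**Figure D1:**
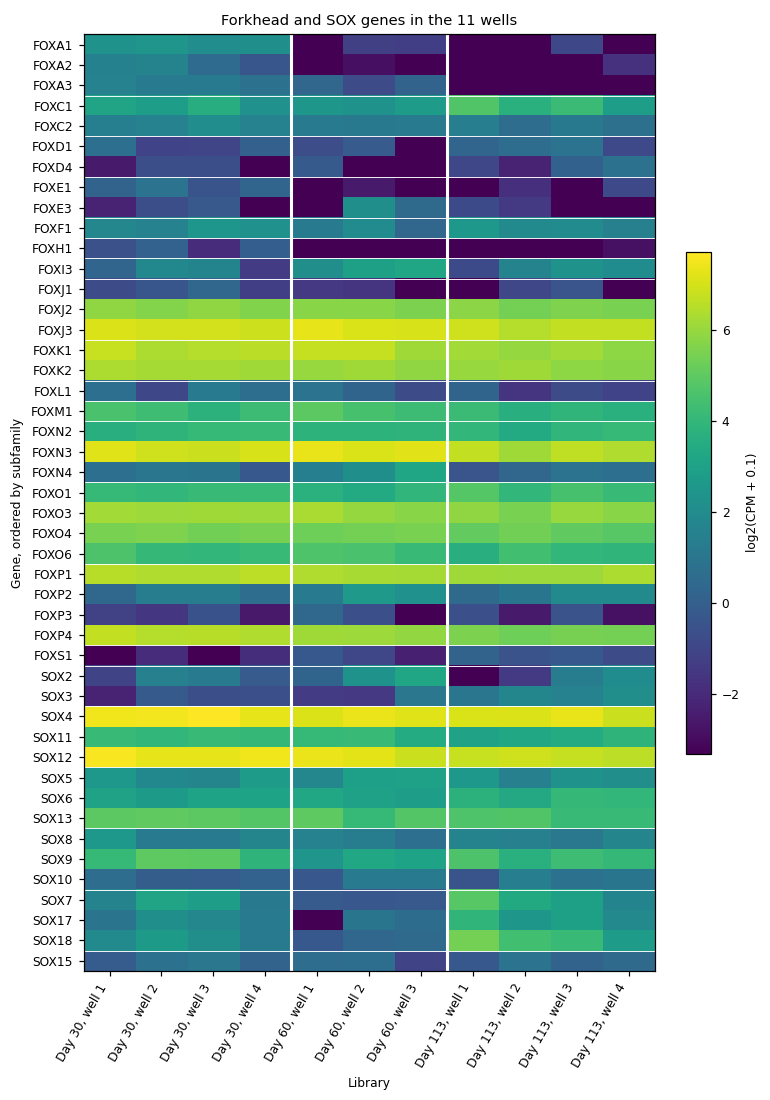
Heat map of 46 of the 47 forkhead and SOX genes (rows) in the 11 wells (columns, grouped by day), with colour giving log2(CPM + 0.1) from dark (low) to bright (high). The FOXA genes are at or near the dark end of the scale at Day 113, SOX7 and SOX18 are darkest at Day 60, and SOX12, SOX4, FOXJ3 and FOXN3 are among the brightest rows.

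Levels were also compared per length of exon, merged over all annotated transcripts of a gene. On that measure the most abundant members at Day 30 were SOX12 at 37.4 CPM per kb and SOX4 at 31.3 CPM per kb. FOXJ3 followed at 18.6, FOXP4 at 15.2 and FOXO4 at 13.1 CPM per kb. By Day 113 SOX4 and SOX12 were at 23.8 and 23.7 CPM per kb, and FOXP4 was at 6.96 CPM per kb. The ranking depends on the merged length: FOXP1, at 90.6 CPM at Day 30, came to 2.47 CPM per kb over 36.7 kb.

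The 3 FOXA genes, pioneer factors of endoderm from which liver, lung and gut form, were present at Day 30 and had all fallen to near 0 by Day 113. FOXA1 (chromosome 14, 37589552 to 37595249, minus strand, GRCh38.p14) read 4.93, 5.27, 4.15 and 4.47 CPM in the Day 30 wells, 0, 0.332 and 0.315 CPM at Day 60 and 0, 0, 0.428 and 0 CPM at Day 113. All 4 Day 30 wells were above every later well, and 3 of the 4 Day 113 wells held no count. It fell by Day 60, -4.43 ± 1.03 (log2 fold change ± SE, adjusted p 0.011), and from Day 30 to Day 113, -5.29 ± 0.96 (adjusted p 5.2e-04). Without Day 60 replicate 1 the first value was -3.82, and without Day 113 replicate 3 the Day 113 level was at least 135-fold lower than at Day 30, taking a floor of 3 counts over the group. DESeq2 did not call the first fall (adjusted p 0.063).

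FOXA2 (chromosome 20, 22580998 to 22585490, minus strand), needed for node and endoderm, read 2.83, 2.97, 1.35 and 0.687 CPM at Day 30. It kept 1 count over the 3 Day 60 wells, a ratio of 175 (95% counting interval 31.0 to 6928, adjusted p 0.0060), and without Day 60 replicate 2, which held it, the level was at least 40.7-fold lower. At Day 113 only replicate 4 held counts, at 0.201 CPM. The change from Day 30 was -5.33 ± 1.12 (adjusted p 0.0016), and without that well it was at least 62.2-fold lower.

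FOXA3 (chromosome 19, 45864326 to 45873797, plus strand), the family member of liver and gut, fell between Day 60 and Day 113. Its wells read 2.86, 2.27, 2.30 and 1.68 CPM at Day 30, 1.15, 0.479 and 1.04 CPM at Day 60 and 0 in all 4 wells at Day 113. The Day 60 wells were all below the Day 30 wells, but that difference did not pass the test (adjusted p 0.16). The Day 113 level was at least 36.8-fold lower than at Day 60 (adjusted p 1.3e-04), and at least 91.6-fold lower than at Day 30 (adjusted p 8.1e-06). Its 2 intervals differed from each other (adjusted p 0.0085).

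FOXE1, known from thyroid and foregut, and FOXH1, which carries Nodal signals early in development, were low and also fell by Day 60. FOXE1 read 1.03, 1.73, 0.625 and 1.10 CPM at Day 30 and 0, 0.0737 and 0 CPM at Day 60, a ratio of 50.7 (95% counting interval 13.7 to 423, adjusted p 0.037). That call was lost without any 1 of the Day 30 wells or without Day 60 replicate 1 or 3 (adjusted p 0.069, 0.10, 0.055, 0.065, 0.13 and 0.13), and without Day 60 replicate 2 the level was at least 23.6-fold lower. Its Day 113 wells read 0, 0.187, 0 and 0.441 CPM, not called against Day 30 (adjusted p 0.065). FOXH1 stayed under a mean of 1 CPM on every day, with 0.573, 1.00, 0.165 and 0.893 CPM at Day 30 and 0 in each Day 60 well, at least 19.8-fold lower (adjusted p 0.019). Leaving out Day 60 replicate 1, 2 or 3 lost that call (adjusted p 0.061, 0.051 and 0.056), as did a replicate block (0.054). At Day 113 FOXH1 had 1 count in all, in replicate 4, a ratio to Day 30 of 79.7 (95% counting interval 13.9 to 3189, adjusted p 0.0060), and without that well it was at least 21.1-fold lower.

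Endoderm and epithelial genes moved over the same days. Of 22 endoderm and liver markers tested, 19 fell by Day 60 and none rose, beside 5.91% and 4.39% of all genes. Their median log2 fold change was -4.65. AFP, the fetal albumin-like protein, averaged 499.8 ± 187 CPM (SD) in the 4 Day 30 wells and 5.95 ± 1.92 CPM in the 3 Day 60 wells, and FGB, a fibrinogen chain of liver, went from 37.9 ± 10.6 to 0.202 ± 0.248 CPM. HNF4A, a liver and gut regulator, went from 5.58 ± 1.72 to 0.610 ± 0.430 and then 0.0571 ± 0.114 CPM. The list summed to 604 to 1752 CPM over the Day 30 wells, 61.2 to 69.3 CPM at Day 60 and 21.2 to 58.2 CPM at Day 113, and CDX2, a defining gut marker, was at 0 on the 2 later days. Of 17 epithelial markers 15 fell by Day 60 (5.91% of all genes), among them the tight junction gene CLDN6, from 131 ± 16.2 to 18.0 ± 1.28 CPM. The epithelial sum, led by the keratins KRT8, KRT18 and KRT19, was 2237 to 3275, 1313 to 1504 and 1189 to 1982 CPM on the 3 days. The part of endoderm and epithelial RNA in the falls of FOXA1, FOXA2, FOXA3, FOXE1 and FOXH1 was not tested. In bulk RNA fewer cells of a type and less RNA per cell cannot be told apart.

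The promoter letters of FOXA1 and FOXA3 are shown because the falls of these paralogs were called in different intervals. Each is the 250 bases before the RefSeq start on GRCh38.p14, 5′ to 3′ on the gene's strand. Capitals mark matches, on either strand, to the forkhead motifs TGTTTAC and TGTTTGC or the SOX motifs ACAATG and ACAAAG.
FOXA1, chr14:37595250-37595499, minus strand: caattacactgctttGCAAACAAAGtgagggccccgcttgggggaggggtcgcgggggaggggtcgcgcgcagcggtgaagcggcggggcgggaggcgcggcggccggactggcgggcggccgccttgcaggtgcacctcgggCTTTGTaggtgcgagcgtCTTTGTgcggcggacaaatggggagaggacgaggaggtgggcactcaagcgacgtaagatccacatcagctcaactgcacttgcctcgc
FOXA3, chr19:45864076-45864325, plus strand: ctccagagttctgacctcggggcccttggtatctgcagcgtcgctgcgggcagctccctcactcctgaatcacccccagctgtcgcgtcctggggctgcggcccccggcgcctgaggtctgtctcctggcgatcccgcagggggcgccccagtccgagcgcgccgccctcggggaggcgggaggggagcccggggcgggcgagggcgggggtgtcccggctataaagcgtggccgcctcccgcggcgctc
The FOXA1 window held 1 TGTTTGC match that began 235 bases before the start and overlapped an ACAAAG match at 231, and 2 more ACAAAG matches at 107 and 89. The FOXA3 window held no match to these 4 words, which says only that the letters are not in this window. TGTTTGC occurred in 3.23% of all 35116 windows of this length and ACAAAG in 13.7%. Over the 28 members with a window, either forkhead motif was found in 5 of 43 windows (11.6%, beside 6.09% of all windows) and either SOX motif in 11 of 43 (25.6%, beside 21.2%). A match is a description of sequence, not a shown binding site.

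The SOXF genes, SOX7, SOX17 and SOX18, which specify endothelium and lymphatic vessels, had their lowest means at Day 60 and their highest at Day 113. SOX18 (chromosome 20, 64047582 to 64049639, minus strand) read 3.82, 6.37, 4.28 and 2.34 CPM at Day 30, 0.734, 1.14 and 1.32 CPM at Day 60 and 42.9, 20.5, 18.0 and 6.78 CPM at Day 113. Every Day 60 well was below every Day 30 well, and every Day 113 well was above them all. SOX18 fell in the first interval, -1.98 ± 0.51 (log2 fold change ± SE, adjusted p 0.021), rose in the second, 4.37 ± 0.54 (adjusted p 5.2e-05), and was higher at Day 113 than at Day 30, 2.39 ± 0.42 (adjusted p 4.1e-04). The 2 intervals differed (adjusted p 0.0014).

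SOX7 (chromosome 8, 10723768 to 10730511, minus strand) read 3.02, 8.74, 7.08 and 2.10 CPM at Day 30, 0.798, 0.700 and 0.757 CPM at Day 60 and 28.9, 10.3, 7.62 and 3.09 CPM at Day 113. The Day 60 wells lay within 0.1 CPM of each other and below all other wells, while Day 113 spread widely and overlapped Day 30. SOX7 fell, -2.79 ± 0.67 (adjusted p 0.014), then rose, 4.05 ± 0.70 (adjusted p 6.7e-04), and the intervals differed (adjusted p 0.0045). Day 113 against Day 30 gave 1.25 ± 0.53 (adjusted p 0.080), and without Day 113 replicate 1 that value was 0.42 and the second rise 3.22. The first fall was lost for both genes when 1 Day 60 well was left out: omitting Day 60 replicate 1, 2 or 3 gave adjusted p values of 0.058, 0.053 and 0.067 for SOX7 and 0.10, 0.060 and 0.061 for SOX18. SOX18 also lost it without Day 30 replicate 2 (0.072), and neither was called by limma-voom (adjusted p 0.27 for SOX7 and 0.35 for SOX18) or with robust dispersions (0.065 and 0.069).

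SOX17, which also marks endoderm, read 1.80, 4.37, 3.36 and 2.27 CPM at Day 30, 0, 1.84 and 1.39 CPM at Day 60 and 15.0, 5.66, 7.70 and 3.61 CPM at Day 113. Its first interval did not pass (log2 fold change -1.46 ± 0.73, adjusted p 0.25), and it rose in the second, 2.90 ± 0.76 (adjusted p 0.011). Without Day 60 replicate 1, which held no count, these values were -0.85 and 2.30, and without Day 60 replicate 2 they were -2.08 and 3.52. FOXC1 (chromosome 6, 1609915 to 1613897, plus strand), a factor of vessels and mesenchyme, read 8.78, 7.24, 11.7 and 4.71 CPM, 5.62, 4.90 and 6.56 CPM and 26.6, 12.7, 18.5 and 7.30 CPM on the 3 days. It rose from Day 60 to Day 113, 1.52 ± 0.37 (adjusted p 0.0070), with no overlap of wells. Against Day 30 it rose by 1.01 ± 0.33 (adjusted p 0.024), a call lost without Day 30 replicate 2 or 4 (adjusted p 0.061 and 0.073) or Day 113 replicate 1 or 3 (0.099 and 0.058). Its paralog FOXC2, at 3.15 ± 0.717, 2.21 ± 0.0680 and 1.94 ± 0.509 CPM (SD, n = 4, 3 and 4), was not called.

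**Figure D2:**
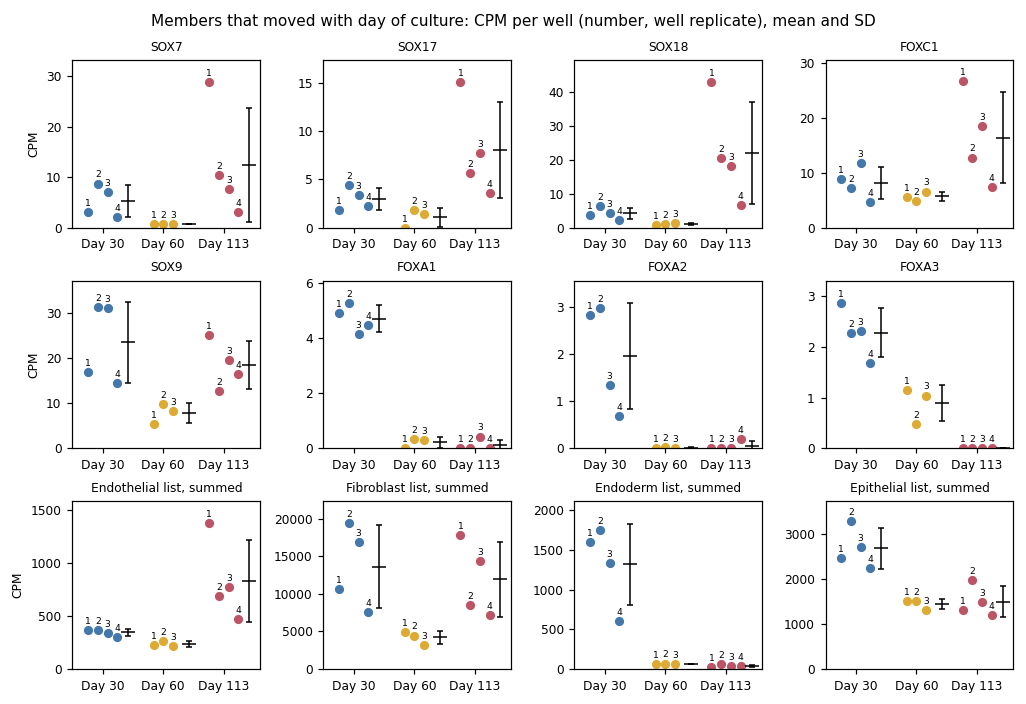
CPM per well (points, numbered by replicate) with mean and SD (bars cut at 0) for SOX7, SOX17, SOX18, FOXC1, SOX9 and the 3 FOXA genes, and the summed CPM of 4 marker lists (the endothelial list with PROX1), at Day 30 (n = 4), Day 60 (n = 3) and Day 113 (n = 4). SOX18 reaches 42.9 CPM in Day 113 replicate 1 and 6.78 CPM in replicate 4, while FOXA3 is at 0 in all 4 Day 113 wells.

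Endothelial genes rose in the same interval as the SOXF genes. From Day 60 to Day 113, 20 of 22 markers rose and 1 fell, beside 12.9% and 11.1% of all genes. Their median log2 fold change was 3.03. VWF, the clotting factor stored by endothelium, went from 1.27 ± 1.71 to 52.9 ± 44.4 CPM and CLDN5, a tight junction protein of vessels, from 1.92 ± 1.08 to 39.0 ± 21.6 CPM. In the first interval 5 of the 22 fell and 1 rose, beside 5.91% and 4.39% of all genes. The list without PROX1, which cardiomyocytes also express, summed to 158 to 241 CPM at Day 30, 87.8 to 147 CPM at Day 60 and 375 to 1300.4 CPM at Day 113. Within Day 113, SOX7, SOX17, SOX18 and FOXC1 were all highest in replicate 1 and lowest in replicate 4, and so were that sum, at 1300.4, 626, 695 and 375 CPM, and the fibroblast sum given below. The part of endothelial RNA in these 4 genes was not tested.

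SOX9 (chromosome 17, 72121020 to 72126416, plus strand), the cartilage and progenitor factor of the SOXE subgroup, fell by Day 60 and rose again by Day 113. It read 16.9, 31.3, 31.1 and 14.5 CPM at Day 30, 5.36, 9.80 and 8.33 CPM at Day 60 and 25.1, 12.8, 19.6 and 16.4 CPM at Day 113. The Day 60 wells were below all others, and Day 113 lay within the range of Day 30 in 3 of 4 wells. SOX9 fell, -1.58 ± 0.30 (log2 fold change ± SE, adjusted p 0.0033), then rose, 1.24 ± 0.30 (adjusted p 0.0072), with intervals that differed (adjusted p 0.0057). Day 113 against Day 30 was -0.34 ± 0.27 (adjusted p 0.35). None of the 22 alternatives lost either call.

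Cartilage genes that SOX9 is known to activate moved in both directions. COL2A1, the collagen of cartilage, went from 688 ± 84.9 to 168 ± 19.9 and 30.3 ± 10.1 CPM, falling in both intervals, -2.04 ± 0.19 (adjusted p 1.2e-05) and -2.47 ± 0.19 (adjusted p 8.8e-07). COL9A2 rose from 6.61 ± 4.61 to 48.6 ± 17.3 CPM, 2.87 ± 0.66 (adjusted p 0.010), and HAPLN1, a cartilage link protein, fell by Day 60, -1.75 ± 0.22 (adjusted p 1.4e-04). Of 12 such genes tested, 3 rose and 3 fell in the first interval, and 1 rose and 2 fell in the second. Over all genes 4.39% rose and 5.91% fell in the first, and 12.9% rose and 11.1% fell in the second. The counts of the second interval were near that share.

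Fibroblast and stromal markers, which cover other cells known to express SOX9, summed to 10607, 19458, 16832 and 7554 CPM in the Day 30 wells, 4968, 4457 and 3172 CPM at Day 60 and 17776, 8465, 14343 and 7211 CPM at Day 113. Within Day 30, SOX7, SOX9 and SOX18 ran in the order replicate 2, 3, 1 and 4, as did this sum. The order was not particular to it, because the epithelial sum ran the same way. The endothelial sum without PROX1 ran 2, 1, 3 and 4 at Day 30. SOX17 ran 2, 3, 4 and 1 there, and FOXC1 ran 3, 1, 2 and 4. On the later days SOX9 did not follow the fibroblast sum. At Day 60 SOX9 ran 2, 3 and 1 and the sum 1, 2 and 3. At Day 113 SOX9 ran 1, 3, 4 and 2 and the sum 1, 3, 2 and 4. Of the 17 markers 3 rose and 6 fell in the first interval (4.39% and 5.91% of all genes). In the second 12 rose and 1 fell (12.9% and 11.1% of all genes). Among them WT1, of epicardium, went from 5.58 ± 1.12 to 21.6 ± 3.73 and 46.9 ± 9.62 CPM, and FBLN1, a matrix protein, from 215 ± 128 to 45.3 ± 1.65 and 29.4 ± 6.22 CPM. The part of such cells in the SOX9 values was not tested.

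The other SOXE genes, SOX8 at 3.37 ± 1.73, 2.31 ± 0.685 and 2.74 ± 0.498 CPM and SOX10, the neural crest and glial factor, at 1.03 ± 0.288, 1.76 ± 0.918 and 1.67 ± 0.780 CPM (SD, n = 4, 3 and 4), were called in no comparison. Pigment genes that SOX10 is known to help activate in melanocytes stood higher by Day 60: DCT went from 4.71 ± 1.92 to 49.6 ± 10.1 CPM, 3.39 ± 0.62 (adjusted p 0.0024), and PMEL from 17.4 ± 10.2 to 73.6 ± 12.9 CPM, 2.08 ± 0.57 (adjusted p 0.027). TFAP2A, a neural crest and surface ectoderm factor, fell, -4.08 ± 0.63 (adjusted p 6.2e-04). Over the 15 neural crest and glial markers tested, 4 rose and 4 fell by Day 60, beside 4.39% and 5.91% of all genes.

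FOXN4, which acts in retinal and spinal progenitors, was the 1 member that rose by Day 60. It read 1.53, 1.90, 1.81 and 0.721 CPM at Day 30, 2.65, 4.42 and 8.90 CPM at Day 60 and 0.664, 1.16, 1.74 and 1.52 CPM at Day 113. The Day 60 wells were above all others but differed more than 3-fold among themselves. FOXN4 rose, 1.83 ± 0.46 (log2 fold change ± SE, adjusted p 0.018), then fell, -2.06 ± 0.47 (adjusted p 0.0047), and the intervals differed (adjusted p 0.0054). Both calls rested on Day 60 replicate 3: without it the adjusted p values were 0.16 and 0.0503.

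Several other members known from ectoderm also varied between the Day 60 wells and were not called. SOX2, of neural and pluripotent cells, read 1.09, 4.97 and 9.27 CPM in the 3 Day 60 wells, against 0.382, 2.74, 2.17 and 0.790 CPM at Day 30 (log2 fold change 1.74 ± 0.99, adjusted p 0.33), and without Day 60 replicate 3 the value was 1.01. FOXI3, of the otic and branchial ectoderm, read 4.24, 7.66 and 8.80 CPM at Day 60 against 1.11, 3.44, 3.03 and 0.275 CPM (log2 fold change 1.81 ± 0.67, adjusted p 0.11), with no overlap. FOXE3, the lens epithelium factor, read 0, 4.39 and 1.32 CPM at Day 60 against 0.115, 0.534, 0.757 and 0 CPM (log2 fold change 2.41 ± 1.40, adjusted p 0.34), and without Day 60 replicate 2 the value was 0.90. These values place the high wells at Day 60 replicates 2 and 3 for all 3 genes, with FOXE3 alone highest in replicate 2. SOX2-OT, a non-coding transcript whose locus holds SOX2, read 0.383, 1.73 and 1.92 CPM in the same wells. FOXP2, of neurons, read 2.23, 6.23 and 4.73 CPM at Day 60 (log2 fold change 1.20 ± 0.44, adjusted p 0.10). Unequal wells were not particular to Day 60. At Day 113 SOX2 read 0, 0.262, 2.45 and 4.01 CPM, and FOXI3 read 0.462, 2.96, 5.02 and 4.01 CPM. FOXE3 read 0.462, 0.262, 0 and 0 CPM there, and FOXP2 read 1.30, 1.84, 3.68 and 3.77 CPM.

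SOX3, the SOXB1 paralog of SOX2, was low on the first 2 days. It read 0.115, 0.767, 0.527 and 0.550 CPM at Day 30, 0.287, 0.258 and 1.99 CPM at Day 60 and 1.93, 3.30, 2.91 and 4.29 CPM at Day 113. All 4 Day 113 wells were above the Day 30 wells, and SOX3 rose over the whole course, 2.65 ± 0.66 (log2 fold change ± SE, adjusted p 0.0054). The first interval changed sign without Day 60 replicate 3, from 0.78 to -0.82, neither called.

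**Figure D3:**
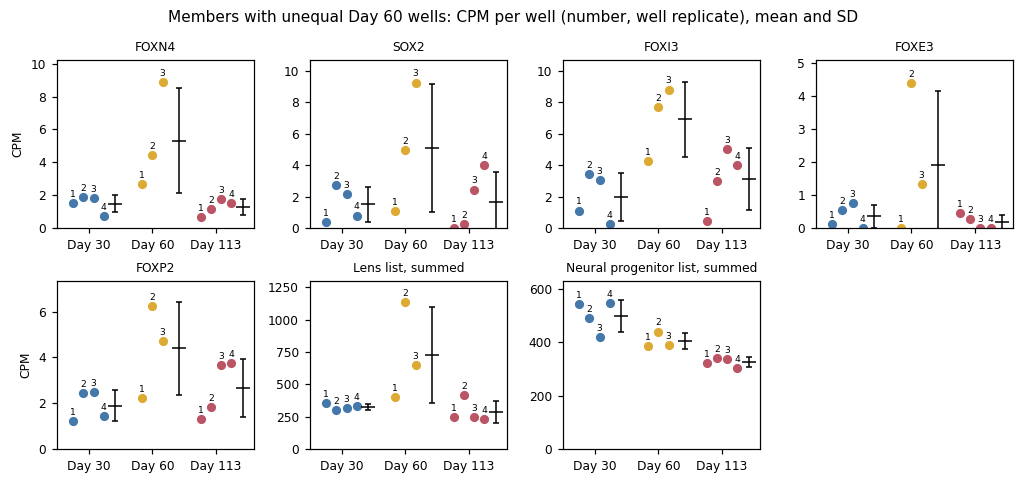
CPM per well (points, numbered by replicate) with mean and SD (bars cut at 0) for FOXN4, SOX2, FOXI3, FOXE3 and FOXP2, and the summed CPM of the lens and neural progenitor lists, by day. Day 60 replicate 1 is the lowest Day 60 well for FOXN4 (2.65 CPM), SOX2 (1.09 CPM) and FOXI3 (4.24 CPM), and the neural progenitor sum, here with NES, spans 387 to 440.0 CPM over those wells.

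Lens genes rose at Day 60: 15 of 18 markers tested rose and none fell, beside 4.39% and 5.91% of all genes. From Day 60 to Day 113, 14 fell, beside 11.1% of all genes. CRYBB2, a beta-crystallin, went from 0.130 ± 0.0763 to 56.3 ± 42.4 and 11.3 ± 17.6 CPM. Without GJA3, which was already high at Day 30, the list summed to 4.47 to 6.42 CPM at Day 30, 114, 828 and 347 CPM in the 3 Day 60 wells and 15.1, 165, 7.67 and 16.2 CPM at Day 113. The Day 60 wells ran in the order 2, 3 and 1, as they did for FOXE3. Neural progenitor markers summed to 419 to 548 CPM at Day 30, 387 to 440.0 CPM at Day 60 and 302 to 339 CPM at Day 113, a sum led by NES. Without NES it was 39.7 to 79.1 CPM at Day 30, 60.9, 131 and 132 CPM in the Day 60 wells and 25.3 to 88.1 CPM at Day 113, so that Day 60 replicate 1 was the lowest of its day, as for FOXN4, SOX2, FOXI3, FOXE3 and FOXP2. By Day 60, 2 of 12 had risen and 1 had fallen, beside 4.39% and 5.91% of all genes. The median log2 fold change of these markers against Day 30 was 1.92 at Day 60 and 1.16 at Day 113. LHX2, of eye field and forebrain, rose by 2.31 ± 0.69 (adjusted p 0.042), while NES, an intermediate filament that muscle cells can also express, fell by Day 60, -0.56 ± 0.14 (adjusted p 0.021). The part of lens and neural RNA in FOXN4, FOXE3, SOX2 and FOXI3 was not tested.

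Among the widely expressed members, FOXP4 (chromosome 6, 41546381 to 41602384, plus strand), a repressor of the FOXP subfamily, was the only one called in both intervals in the same direction. It read 105, 90.4, 91.9 and 86.2 CPM at Day 30, 71.1, 68.4 and 61.9 CPM at Day 60 and 46.5, 39.2, 43.7 and 42.4 CPM at Day 113. There was no overlap of wells at either step. Its log2 fold change was -0.48 ± 0.10 (adjusted p 0.0066) in the first interval, -0.64 ± 0.10 (adjusted p 3.3e-04) in the second and -1.12 ± 0.09 (adjusted p 3.4e-07) over the whole course. Without Day 60 replicate 3 the first step had an adjusted p of 0.054.

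FOXP1, a member of the same repressor subfamily that also acts in heart development, was lower by Day 113. It stood at 90.6 ± 7.50, 78.9 ± 5.50 and 72.4 ± 7.03 CPM (SD, n = 4, 3 and 4). The fall from Day 30 was -0.32 ± 0.10 (adjusted p 0.015), a call lost without Day 30 replicate 4 (adjusted p 0.057).

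FOXN3, a checkpoint-linked repressor, and FOXK1, a repressor of autophagy genes, were not called by Day 60 and fell after it. FOXN3 read 144, 122, 116 and 135 CPM at Day 30, 166, 136 and 151 CPM at Day 60 and 105, 70.1, 101 and 85.0 CPM at Day 113. All Day 113 wells were below all earlier ones. FOXN3 fell from Day 60, -0.74 ± 0.13 (adjusted p 8.3e-04), and from Day 30, -0.51 ± 0.12 (adjusted p 0.0039), and its 2 intervals differed (adjusted p 0.015).

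FOXK1 read 108, 109 and 71.5 CPM at Day 60 and 73.0, 62.4, 72.9 and 57.2 CPM at Day 113, with Day 60 replicate 3 inside the Day 113 range. It fell from Day 60, -0.53 ± 0.15 (adjusted p 0.016), and from Day 30, -0.52 ± 0.14 (adjusted p 0.0077). The first of these was lost without Day 60 replicate 1 (0.076) or 2 (0.079). FOXK2, its paralog, went from 76.3 ± 5.14 to 61.5 ± 7.07 CPM (SD, n = 4), -0.31 ± 0.10 (adjusted p 0.023), and lost its call without Day 30 replicate 1 or 2 (0.082 and 0.054) or Day 113 replicate 3 or 4 (0.071 and 0.074).

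FOXJ3, which activates muscle mitochondrial genes, read 159.9, 138 and 134 CPM at Day 60 and 123, 89.2, 105 and 104 CPM at Day 113, with every later well lower. The fall was -0.45 ± 0.11 (adjusted p 0.0093), with an adjusted p of 0.056 without Day 60 replicate 1. FOXJ2 (54.8 ± 4.72, 51.8 ± 4.76 and 48.4 ± 6.02 CPM) and FOXN2 (15.3 ± 2.58, 14.2 ± 0.291 and 14.5 ± 2.69 CPM) were not called.

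**Figure D4:**
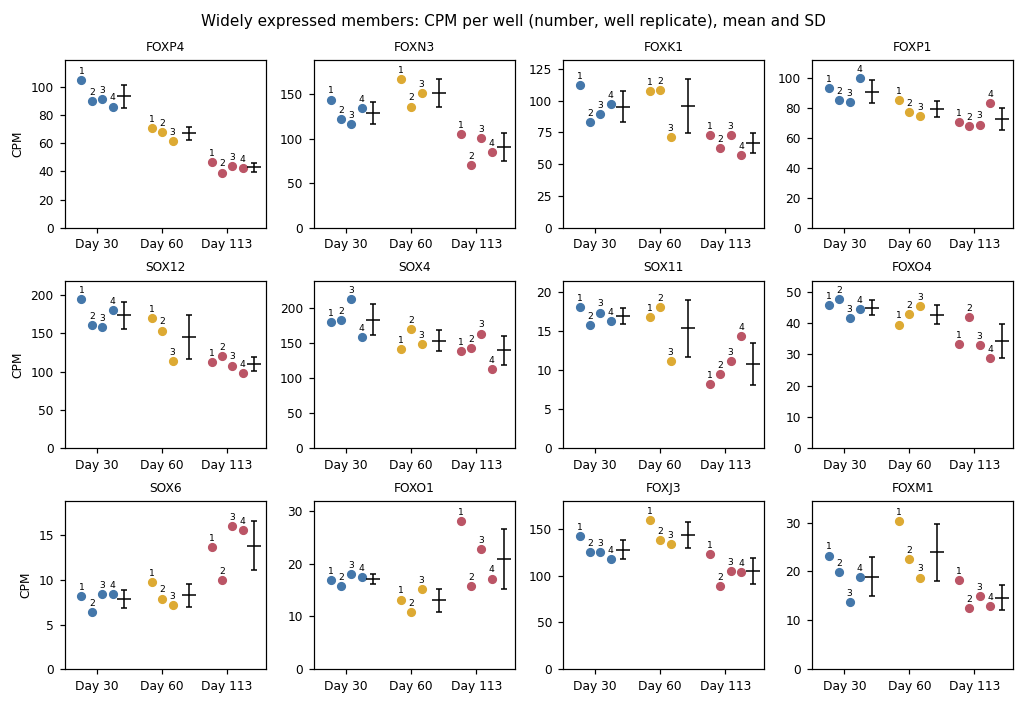
CPM per well (points, numbered by replicate) with mean and SD for 12 widely expressed members at Day 30 (n = 4), Day 60 (n = 3) and Day 113 (n = 4), each on its own axis from 0. FOXP4 steps down on both later days to 43.0 CPM at Day 113, and SOX6 is higher in all 4 Day 113 wells than in any earlier well.

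FOXO factors are held out of the nucleus by insulin and AKT signalling, and the medium contained insulin on every day. FOXO1 read 17.0, 15.8, 18.1 and 17.5 CPM at Day 30, 13.2, 10.8 and 15.2 CPM at Day 60 and 28.1, 15.7, 22.7 and 17.2 CPM at Day 113. All Day 113 wells were above the Day 60 wells, and FOXO1 rose in that interval, 0.68 ± 0.19 (adjusted p 0.016), a call lost without Day 60 replicate 1 (0.053) or 2 (0.077). FOXO4 went the other way, from 45.0 ± 2.53 to 34.3 ± 5.45 CPM (SD, n = 4), -0.39 ± 0.11 (adjusted p 0.013). FOXO3, at 70.7 ± 2.09, 65.1 ± 12.9 and 56.1 ± 8.74 CPM, just missed the threshold (adjusted p 0.051 at Day 113 against Day 30), and its counts are uncertain because FOXO3B, a near-identical copy, held 9.24 CPM at Day 30. FOXO6, at 18.6 ± 4.42, 21.9 ± 4.21 and 15.9 ± 3.77 CPM, was not called.

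Known FOXO targets split in both directions. Of 23, 6 rose and 8 fell from Day 30 to Day 113, beside 17.3% higher and 17.2% lower over all genes. TRIM63, a muscle ubiquitin ligase of atrophy, rose from 195 ± 17.4 to 312 ± 45.6 CPM, 0.68 ± 0.11 (adjusted p 1.4e-04). The insulin and growth factor signalling genes IRS2 and ERBB3 fell, -1.36 ± 0.16 (adjusted p 9.4e-06) and -1.42 ± 0.14 (adjusted p 1.7e-06), as did PIK3IP1, an inhibitor of PI3 kinase, -0.73 ± 0.16 (adjusted p 0.0019).

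FOXM1, which switches on the genes of mitosis, read 23.3, 19.8, 13.7 and 18.9 CPM at Day 30, 30.4, 22.6 and 18.8 CPM at Day 60 and 18.3, 12.5, 15.0 and 12.9 CPM at Day 113. It fell from Day 60 to Day 113, -0.70 ± 0.20 (adjusted p 0.018), though the lowest Day 60 well was within 1 CPM of the highest Day 113 well, and the call was lost without Day 60 replicate 1 (0.12). Mitosis genes and known FOXM1 targets fell in the same interval: 26 of 27 fell and none rose, beside 11.1% and 12.9% of all genes. Their median log2 fold change was -1.19. Within Day 113 FOXM1 ran in the order replicate 1, 3, 4 and 2, and the summed list ran 1, 4, 3 and 2. The part of FOXM1 in these falls was not tested. The kinase NEK2 went from 29.8 ± 5.09 to 6.17 ± 3.25 CPM, CDC20, an activator of the anaphase-promoting complex, from 34.5 ± 6.45 to 9.49 ± 3.61 CPM, and PLK1 from 37.0 ± 5.51 to 10.8 ± 4.02 CPM. By Day 60, 7 of the list had risen and 1 had fallen, beside 4.39% and 5.91% of all genes. The 1 that fell was SKP2, -0.68 ± 0.17 (adjusted p 0.019).

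The SOXC genes, SOX4, SOX11 and SOX12, which are typical of immature and developing cells, were all lower at Day 113 than at Day 30. SOX12 (chromosome 20, 325552 to 330224, plus strand) read 194, 160.3, 158 and 181 CPM at Day 30, 169, 153 and 113 CPM at Day 60 and 113, 121, 108 and 98.1 CPM at Day 113. All Day 113 wells were below all Day 30 wells, and the fall was -0.66 ± 0.12 (log2 fold change ± SE, adjusted p 5.1e-04). SOX11 read 18.1, 15.8, 17.3 and 16.2 CPM at Day 30 and 8.20, 9.49, 11.2 and 14.4 CPM at Day 113, without overlap, and fell, -0.64 ± 0.19 (adjusted p 0.013). SOX4 read 179.5, 183, 212 and 158 CPM at Day 30 and 139, 143, 163 and 113 CPM at Day 113, with overlap, and fell, -0.39 ± 0.12 (adjusted p 0.016), a call lost without Day 30 replicate 3 (0.066) or Day 113 replicate 4 (0.054). SOX12 also fell from Day 60, -0.41 ± 0.13 (adjusted p 0.030), and lost that call without Day 60 replicate 1 (0.16) or 2 (0.099), without Day 113 replicate 3 (0.063) or 4 (0.076), and when only those 2 days were fitted (0.053).

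SOX6 (chromosome 11, 15966449 to 16738477, minus strand), the SOXD factor that represses slow and fetal muscle genes, rose instead. It read 8.21, 6.40, 8.46 and 8.38 CPM at Day 30, 9.73, 7.92 and 7.19 CPM at Day 60 and 13.7, 10.0, 16.1 and 15.6 CPM at Day 113. Every Day 113 well was above every earlier well. SOX6 rose from Day 30, 0.82 ± 0.18 (log2 fold change ± SE, adjusted p 0.0026), and from Day 60, 0.74 ± 0.20 (adjusted p 0.013), the latter lost without Day 60 replicate 3 (0.067). The other SOXD genes, SOX5 (4.81 ± 1.72, 6.22 ± 2.53 and 4.46 ± 1.34 CPM) and SOX13 (30.1 ± 2.04, 25.1 ± 7.49 and 21.9 ± 4.97 CPM), were not called.

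The windows of SOX12 and SOX6 are shown as the most changed SOXC and SOXD members with a window, in opposite directions, and were chosen after their values were seen. Both held a TGTTTAC match, as did FOXP1, while 2.98% of all windows did. That share is per window and does not compare with SOX6, whose window was picked from 5 for its number of matches.
SOX12, chr20:325302-325551, plus strand: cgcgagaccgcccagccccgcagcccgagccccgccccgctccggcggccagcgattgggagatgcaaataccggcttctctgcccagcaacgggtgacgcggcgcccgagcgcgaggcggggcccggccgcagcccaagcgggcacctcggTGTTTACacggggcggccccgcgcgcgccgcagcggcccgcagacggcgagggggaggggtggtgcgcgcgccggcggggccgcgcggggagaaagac
SOX6, chr11:16356547-16356796, minus strand: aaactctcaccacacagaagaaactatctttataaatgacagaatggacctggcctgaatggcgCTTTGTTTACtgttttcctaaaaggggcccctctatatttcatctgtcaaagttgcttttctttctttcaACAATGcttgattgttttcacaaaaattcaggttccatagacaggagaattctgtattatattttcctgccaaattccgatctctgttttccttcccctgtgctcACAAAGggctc
In SOX12 the match began 98 bases before the start. SOX6 is shown by 1 of its 5 windows, chosen for its number of matches. That window ends at 16356796, inside the gene (15966449 to 16738477, minus strand). It therefore precedes a start within SOX6, not the gene's 5′ end. In this window TGTTTAC began at 183 and overlapped ACAAAG at 186, with ACAATG at 116 and ACAAAG again at 11. For SOX12 and SOX6 a short stretch after the start was not found in a GENCODE v29 transcript of the gene, as it was for FOXA1 and FOXA3. ACAATG occurred in 9.29% of all windows.

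The remaining members were low. FOXF1, of lateral mesoderm and visceral mesenchyme, stood at 4.09 ± 1.18, 2.47 ± 1.43 and 4.06 ± 1.30 CPM. FOXL1, of gut mesenchyme, had 1.45 ± 0.781, 1.09 ± 0.625 and 0.535 ± 0.371 CPM, FOXD1, of kidney stroma and retina, 0.813 ± 0.550, 0.440 ± 0.410 and 1.18 ± 0.554 CPM, and SOX15 1.39 ± 0.538, 1.11 ± 0.633 and 1.22 ± 0.440 CPM (SD, n = 4, 3 and 4). None of these 4 was called.

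FOXS1, of pericytes and sensory neurons, was 1 of 5 members under a mean of 1 CPM on every day. It read 0, 0.167, 0 and 0.172 CPM at Day 30 and 1.04, 0.600, 0.713 and 0.481 CPM at Day 113, all Day 113 wells being higher, and rose by 3.00 ± 1.07 (adjusted p 0.040). That call was lost without Day 30 replicate 1 (0.088) or 3 (0.084), without Day 113 replicate 1 (0.086), 2 (0.0505) or 3 (0.064), and with a replicate block (0.057). FOXJ1, the master factor of motile cilia, was another and was not called. Of 18 cilium genes tested, 1 rose and none fell from Day 30 to Day 113, beside 17.3% higher and 17.2% lower over all genes. FOXD4, which has near-identical copies, and FOXP3 completed the 5, and neither was called.

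**Figure D5:**
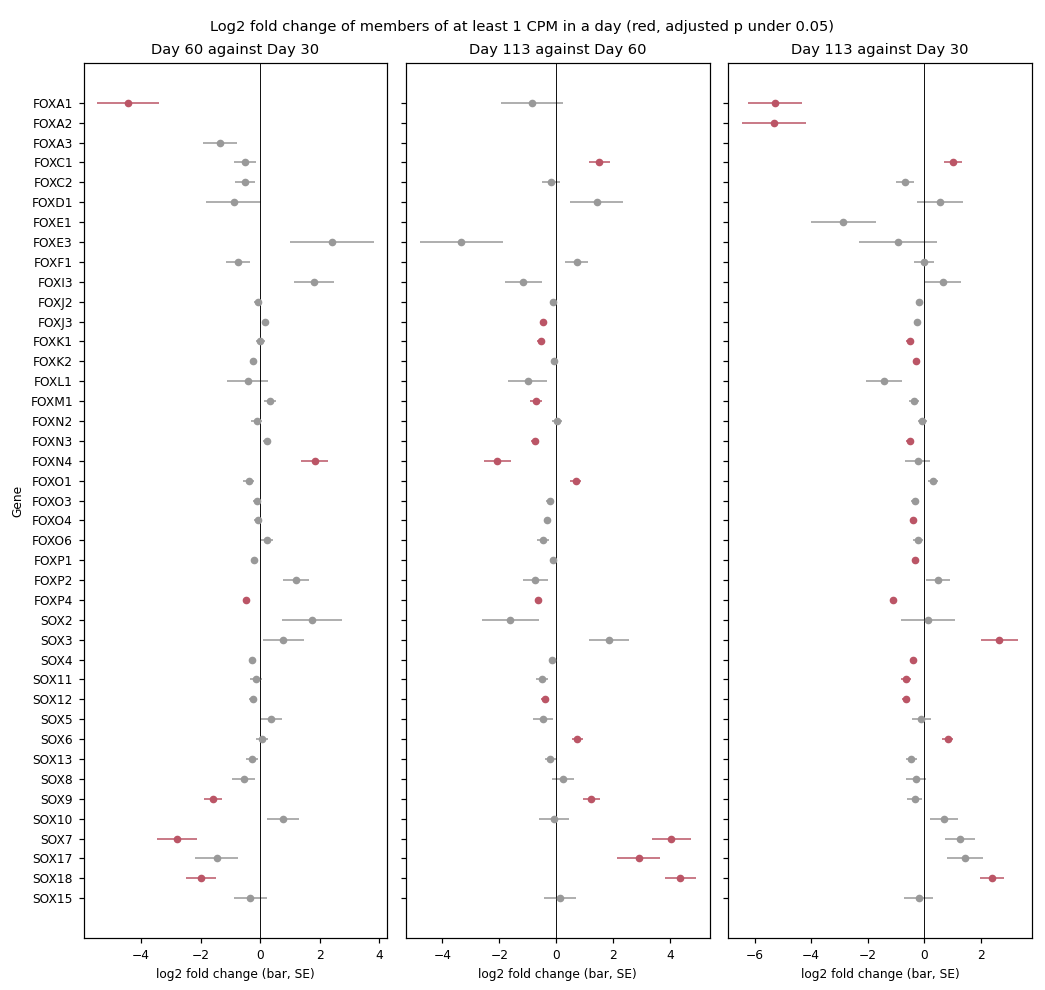
Log2 fold change (horizontal axis, points) with SE (bars) for the reported members of at least 1 CPM on a day in the 3 comparisons of days, with red marking adjusted p under 0.05. Comparisons with a day of 3 counts or fewer are left out. SOX18 and SOX7 lie left of 0 in Day 60 against Day 30 and right of 0 in Day 113 against Day 60, and FOXP4 lies left of 0 in all 3.

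Exons of 10 members overlap another gene in the table, and whether the counting used strand is not given in the sources used here. SOX7 overlaps PINX1, FOXM1 overlaps ITFG2, FOXO1 overlaps LINC00598, SOX6 overlaps C11orf58, FOXK2 overlaps WDR45B and FOXH1 overlaps KIFC2, so reads there could be shared. The low values of FOXP3 beside CCDC22, SOX15 beside MPDU1, SOX10 beside POLR2F and FOXJ1 beside RNF157-AS1 are uncertain for the same reason.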

How the data were processed

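Poly(A) RNA of 11 wells, grouped by the day in the labels, was measured by RNA-seq. The authors deposited a table of raw counts per gene. The submitters' processing notes name STAR 2.5.3a, featureCounts 2.0.3 and hg38, and the annotation and strand setting are not given in the sources used here. The authors also deposited TPM values. These were checked and not used, because gene lengths implied by count over TPM did not match between libraries (median Spearman rho over genes -0.0022 across 55 library pairs).

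Counts were tested with edgeR 4.0.16 in R 4.3.3: TMM scaling, filterByExpr at a minimum count of 10 (which removed 0 of 19990 genes), 1 quasi-likelihood fit over all 11 libraries with day as the only factor, and Benjamini-Hochberg adjustment over all genes at 0.05. The fit was tested on simulated data for Day 113 against Day 30. It called 135 of 200 changed genes in the right direction (64% of 2-fold and 71% of 4-fold changes), with 1 false call. A real change can thus go uncalled. Far fewer genes were changed in the simulation (200 of 19990) than were called in the data (34.5%). The Benjamini-Hochberg cutoff depends on that share, so these percentages do not give the sensitivity for these data. SE is the log2 fold change divided by the root of the F statistic. Where all libraries of a day held 3 counts or fewer, a bound against 3 counts over the group or an exact Poisson ratio interval at 95% replaced the fold change, and both cover counting error only. The alternatives were DESeq2 1.42.0, limma-voom (limma 3.58.1), 3 scalings, 2 filters, robust dispersions, a stricter threshold, a replicate block, only the 2 days compared, and leaving out each well. Wells of the same day differed beyond counting noise, and none was counted as a duplicate.

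Members at 1 CPM or more on a day are named, except 1 that is counted but not reported here, and those called are given in full. Up to 4 genes of each of 13 lists are named by the size of their change from Day 30 to Day 113 among called genes at 5 CPM or more. KRT8, KRT18, KRT19, SOX2-OT and FOXO3B were named after their values were seen, and the list sums without PROX1, GJA3 or NES were also chosen then. The members and lists were chosen with earlier results of these data known. Positions and promoter windows are from RefSeq (GRCh38.p14), where 28 of 47 members had a window. Exon lengths are merged over the transcripts of each gene in GENCODE v29, which matched all 47.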

Additional observations from a re-analysis of the deposited data

Results flagged for a closer look

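Of 83 groups of 4 wells examined over the members, 6 held 1 well that stood far from the other 3 by the gap between them relative to the whole range. Chance alone gives such a gap in about 1 in 20 groups of normally distributed values. That rate does not hold for FOXA1 and FOXA2 at Day 113, where any count beside 3 wells at 0 is flagged. FOXA1 read 0.428 CPM in Day 113 replicate 3 and 0 in the other wells of that day. FOXA2 read 0.201 CPM in Day 113 replicate 4 and 0 in the others. FOXC2 read 4.21 CPM in Day 30 replicate 3, where the others read 2.64 to 2.90 CPM. FOXO6 read 25.2 CPM in Day 30 replicate 1 against 15.7 to 17.3 CPM, and FOXP1 read 82.9 CPM in Day 113 replicate 4 against 67.9 to 70.2 CPM. SOX6 was low in Day 30 replicate 2, at 6.40 CPM against 8.21 to 8.46 CPM. The 6 fell in 5 different wells.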

How the results depend on the processing

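Of 42 called gene results, 22 kept their call under each of 21 alternatives other than the stricter threshold, and FOXH1 at Day 113 against Day 30 kept it under the 16 that gave it a value. The other 19 lost it under at least 1, and 0 changed sign. An adjusted p under 0.01 left 3 members called at Day 60 against Day 30, 9 at Day 113 against Day 60, 11 at Day 113 against Day 30 and 14 for any change. Members whose 2 intervals differed numbered 12 with DESeq2 and 11 with a replicate block, each including the 6 of the fit used here. Leaving out 1 well gave 3 to 10, 11 to 17 and 15 to 20 members in the 3 comparisons, 19 to 22 for any change and 4 to 9 for the difference between intervals. The low end of the first range came without Day 60 replicate 3, and 5 remained called without Day 60 replicate 1. Replicate numbers were not used to pair the wells in the fit used here. Same-numbered wells of different days correlated at 0.0227 to 0.0761 in their deviations from the day means (10 pairs, all above 0). Pairs with different numbers correlated at -0.0779 to 0.0688. Correlations this weak do not settle whether the numbers pair wells. The block gave 11, 16 and 21 called members in the 3 comparisons and 26 for any change. Among 57 uncalled gene results examined, 15 became called under at least 1 alternative. Examples were SOX3 and FOXO4 at Day 113 against Day 60, under 4 each, and FOXI3 at Day 60 against Day 30, under 3. Of the 57, 2 changed sign. SOX3 at Day 60 against Day 30 was -0.82 without Day 60 replicate 3 (up to 1.22 without another well). FOXA2 at Day 113 against Day 60 was -1.90 without Day 113 replicate 4 (up to 3.55 without another well). The cause was not tested. Leaving out the filter changed nothing, because it had removed no gene. Members under 1 CPM rest on few counts, and a Day 60 group of 3 wells limits each comparison with it.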

Other observations

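Cardiomyocyte genes in the same wells changed in both directions: of 18 markers, 5 rose and 3 fell from Day 30 to Day 113. Over all genes 17.3% rose and 17.2% fell. TNNI3, the adult cardiac troponin I, averaged 78.1 ± 8.40, 240.3 ± 5.76 and 298 ± 66.0 CPM on the 3 days (SD over 4, 3 and 4 wells). MYL2, the ventricular myosin light chain, went from 158 ± 31.6 to 441 ± 16.7 and 789 ± 270.1 CPM. MYH7, the slow myosin heavy chain, went from 15412 ± 2987 to 14522 ± 1242 and 9277 ± 919 CPM. Of 10 pluripotency markers, 2 were tested and both fell by Day 60, beside 5.91% of all genes. TDGF1, a Nodal co-receptor, went from 9.40 ± 2.47 to 2.12 ± 0.985 CPM.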
